A study of Mus musculus with 24 samples.

Results

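Klf2, S1pr1, Ccr7, Il7r, Tcf7, Lef1, Satb1, Bach2 and Foxp1 are 9 genes known for holding naive T cells at rest and for routing them through blood, spleen and lymph nodes. They were chosen by name, with earlier results of these data known. All 9 were found among the 55414 genes of the count tables and among the 6408 genes that had enough counts to test. RNA-seq libraries were made from total RNA of spleen of BALB/c mice, labelled as splenocytes, 4 titled CT-26 and 4 titled control. CT-26 is a colon carcinoma line derived from BALB/c mice, and per the labels it was injected into the right side at 8 weeks of age. The labels conflict: in the treatment field the titled CT-26 libraries are called healthy and the titled control libraries are called CT-26 injected. The sets are therefore named by their titles, and no difference is read as tumour-bearing against healthy. The time from injection, the size of any tumour and whether animals were pooled are not given in the sources used here.

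A resting naive T cell circulates until it meets antigen, and the 9 genes hold it in that state. Klf2 is a zinc finger factor that restrains division and switches on S1pr1. S1pr1 leads cells out of lymphoid tissue towards sphingosine-1-phosphate, Ccr7 leads them into T zones towards Ccl19 and Ccl21, and Il7r carries the survival signal of interleukin 7. Tcf7 and Lef1 encode paired DNA-binding factors of T cell identity, Satb1 organises chromatin in T cells, and Bach2 and Foxp1 are repressors that hold back effector genes. None of these genes is exclusive to T cells: B cells also use Klf2, S1pr1, Ccr7, Bach2 and Foxp1, endothelium uses Klf2 and S1pr1, and mature dendritic cells use Ccr7.

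The libraries held 735298 to 1152550 counts in the titled CT-26 set and 907109 to 1970950 in the titled control set. Mitochondrial genes took 32.0% to 41.1% of counts in titled CT-26 libraries and 46.2% to 66.1% in titled control libraries. Marker lists differed between the sets. Summed levels of 16 T cell markers were 361 to 845 CPM (counts per 1000000 counts, on TMM-scaled totals) in titled CT-26 libraries, against 1638 to 2396 in titled control libraries, and 13 of 14 tested were lower. Of 12 B cell markers 11 were lower, with sums of 397 to 788 CPM in titled CT-26 libraries against 2125 to 3303 in titled control libraries. All 10 markers of red cell precursors were higher, with sums of 3057 to 5674 CPM in titled CT-26 libraries against 818 to 967 in titled control libraries. In bulk tissue, fewer cells of a type and less RNA per cell cannot be told apart. The part of these marker differences in the results for the 9 genes was not tested. Values are also given relative to T cell receptor transcripts, but that scale cannot separate cell number from RNA per cell. The library titled CT-26 1 stood apart within its set, with the highest T and B cell marker sums and the lowest red cell precursor sum, and calls that change without it are given beside the result.

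Of the 9 genes, 6 (Bach2, S1pr1, Il7r, Lef1, Klf2 and Tcf7) had lower levels in spleens titled CT-26 than in those titled control, 0 were higher, and Ccr7, Foxp1 and Satb1 did not pass the test (edgeR quasi-likelihood, adjusted p under 0.05 over all 6408 genes). Over all genes tested, 1381 (21.6%) were lower and 1359 (21.2%) higher. The median log2 fold change, titled CT-26 minus titled control, was -1.31 over the 9 genes and -0.02 over all genes. In 5 of the 9 genes every titled CT-26 library lay below every titled control library, a pattern seen in 18.9% of all genes tested. With library totals in place of TMM scaling the median over all genes was 0.35 and calls split into 1936 higher and 725 lower. The median over the 9 genes was then -0.91, and 5 of them were lower, Tcf7 having lost its call. No label says that the libraries of a set come from separate animals, so the p-values measure the spread between libraries, which may be technical.

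**Figure D1:**
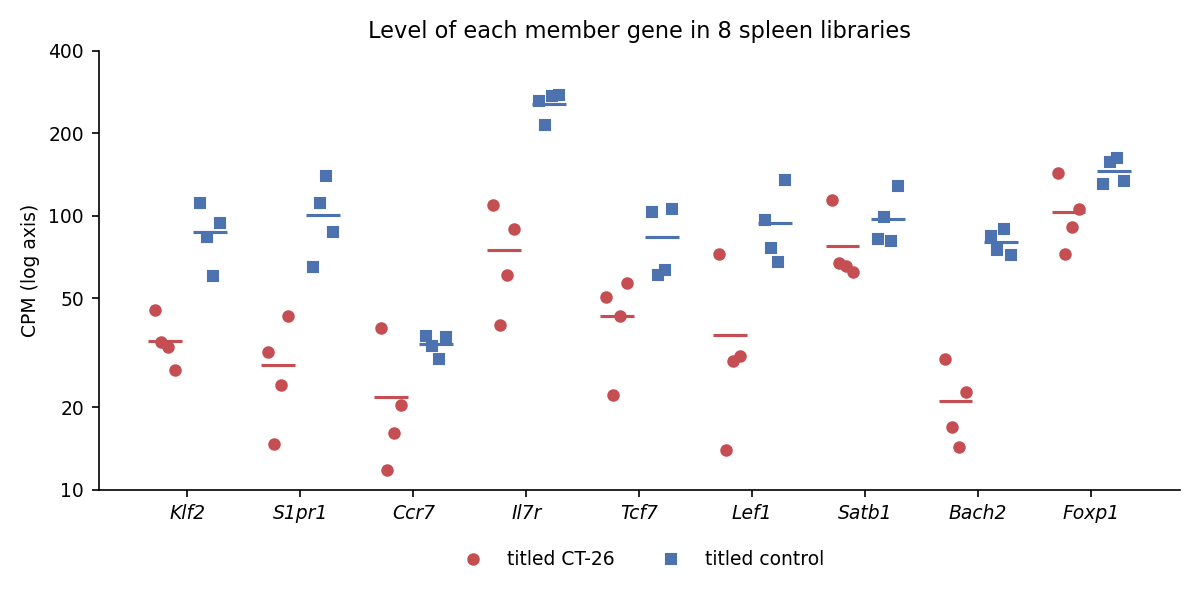
Level of each of the 9 genes in each library, in CPM on TMM-scaled totals. Titled CT-26 libraries stand left of titled control libraries for every gene, with a line at each mean (n = 4 each). The sets do not overlap for Klf2, S1pr1, Il7r, Tcf7 and Bach2, and they overlap for Ccr7, Lef1, Satb1 and Foxp1. Of all genes tested, 18.9% were lower in titled CT-26 libraries without overlap.

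Promoter sequences are shown for Klf2 and Lef1, which were lower, and for Satb1, which did not pass the test, because binding motifs of the gene set's own factor families can be read in them. RefSeq's table (GRCm38.p6) held 7 of the 9 genes, and the 250 bases before the outermost listed start of each were searched on both strands. The motifs were the forkhead core TAAACA, the CACCC box used by Klf factors, the Tcf and Lef core CTTTGA, the Bach2-type element TGAGTCA and the GC box GGGCGG. The 3 stretches below are written 5′ to 3′ along the gene, with CACCC and GC boxes of either strand in capitals. They lie at chr8:72318812-72319061 (plus strand), chr3:131110047-131110296 (plus strand) and chr17:51833291-51833540 (minus strand).
Klf2: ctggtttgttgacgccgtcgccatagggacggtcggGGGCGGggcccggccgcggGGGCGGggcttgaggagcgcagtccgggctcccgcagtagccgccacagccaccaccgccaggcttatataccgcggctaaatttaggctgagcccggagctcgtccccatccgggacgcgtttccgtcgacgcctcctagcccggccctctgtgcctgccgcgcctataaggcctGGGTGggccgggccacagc
Lef1: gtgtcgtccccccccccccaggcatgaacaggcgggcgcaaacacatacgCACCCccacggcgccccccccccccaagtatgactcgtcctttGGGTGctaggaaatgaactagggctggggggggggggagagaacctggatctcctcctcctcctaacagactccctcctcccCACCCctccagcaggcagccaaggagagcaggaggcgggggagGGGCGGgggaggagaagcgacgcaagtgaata
Satb1: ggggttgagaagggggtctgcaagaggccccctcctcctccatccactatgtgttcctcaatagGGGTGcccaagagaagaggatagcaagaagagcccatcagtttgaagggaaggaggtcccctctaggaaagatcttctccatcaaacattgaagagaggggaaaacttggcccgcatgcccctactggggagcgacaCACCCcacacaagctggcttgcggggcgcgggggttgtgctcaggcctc
The Klf2 stretch held 2 GC boxes and 1 CACCC box, and the Lef1 stretch held 3 CACCC boxes and 1 GC box. The Satb1 stretch held 2 CACCC boxes and no GC box. Across the 7 genes, CACCC was present in 5 stretches and the GC box in 4, whereas 52.0% and 32.7% of all 32851 promoters in the table held them. The forkhead core was present in 1 (Foxp1; 12.03% of all promoters), CTTTGA in 1 (Bach2; 13.8%) and TGAGTCA in 0 (4.46%). The shares of all promoters count every listed start, whereas these counts use only the outermost start of each gene. Over all 17 listed starts of the 7 genes, some of which overlap, 13 held CACCC and 9 the GC box. The forkhead core was in 3 of them, CTTTGA in 3 and TGAGTCA in 0. A match in such a window is a description of letters and not evidence of binding. The listed Bach2 start lies inside the gene model used for naming and may not be its main promoter. The Tcf7 stretch, counted for both CACCC and the GC box, reads as an open frame from an ATG to its end. Its GC boxes lie in that frame, so they may be coding sequence and not promoter.

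Among the transcription factors of the quiescent state, Klf2 (ENSMUSG00000055148.8, GRCm39 chr8:73072877-73075500, plus strand) had 45.1, 34.6, 33.1 and 27.3 CPM in titled CT-26 libraries 1 to 4, against 111, 83.4, 60.2 and 94.4 CPM in titled control libraries 1 to 4. Every titled CT-26 library lay below every titled control library. The means were 35.01 ± 7.43 and 87.2 ± 21.4 CPM (SD, n = 4 each), a level 2.48-fold lower in the titled CT-26 set. The log2 fold change was -1.31 (SE 0.24, 95% interval -1.81 to -0.81, edgeR adjusted p = 6.46e-05). Endothelial markers, from a source of Klf2 other than lymphocytes, summed to 81.3 to 146 CPM in titled CT-26 libraries and 103.6 to 184 CPM in titled control libraries, and 1 of 4 tested was lower and 1 higher.

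Bach2, the repressor that restrains effector and plasma cell programmes, had the lowest fold change of the 9 genes. Its level (ENSMUSG00000040270.17, chr4:32238804-32586108, plus strand) was 30.1, 16.9, 14.3 and 22.7 CPM in titled CT-26 libraries, against 84.4, 74.7, 89.2 and 71.6 CPM in titled control libraries. The lowest titled control library was well above the highest titled CT-26 library. The means of 21.01 ± 6.98 and 79.9 ± 8.21 CPM (SD, n = 4 each) differed 3.80-fold, with a log2 fold change of -1.93 (SE 0.26, interval -2.45 to -1.40, edgeR adjusted p = 6.08e-07). Among all genes tested, 265 had a lower log2 fold change than Bach2.

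Foxp1, a forkhead repressor known to keep naive T cells out of cycle, did not pass the test. It had 143, 72.2, 91.2 and 106 CPM in titled CT-26 libraries and 130, 157, 162 and 134 CPM in titled control libraries (ENSMUSG00000030067.18, chr6:98902299-99499682, minus strand). Titled CT-26 library 1 lay within the titled control range, and the other three lay below it. The log2 fold change was -0.50 (SE 0.22, interval -0.95 to -0.05, edgeR adjusted p = 0.0646), where intervals are not widened for the number of genes tested.

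Satb1, the chromatin organiser, had the smallest difference. Its levels were 114, 67.0, 65.3 and 62.5 CPM in titled CT-26 libraries, against 82.2, 98.6, 80.6 and 129 CPM in titled control libraries (ENSMUSG00000023927.16, chr17:52043215-52140318, minus strand). Titled CT-26 library 1 was above 3 of the 4 titled control libraries, while the other three lay below all of them. The log2 fold change was -0.34 (SE 0.23, interval -0.82 to 0.13, edgeR adjusted p = 0.244), and with library totals in place of TMM it was 0.02.

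The receptor for sphingosine-1-phosphate, S1pr1 (ENSMUSG00000045092.9, chr3:115504082-115508721, minus strand), had 31.8, 14.7, 24.1 and 43.2 CPM in titled CT-26 libraries, against 65.1, 111, 140 and 87.2 CPM in titled control libraries. The sets did not overlap. The means were 28.5 ± 12.03 CPM and 101 ± 32.0 CPM (SD, n = 4 each), 3.60-fold lower in the titled CT-26 set, with a log2 fold change of -1.85 (SE 0.29, interval -2.43 to -1.26, edgeR adjusted p = 7.10e-06).

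Il7r, the alpha chain of the interleukin 7 receptor, followed the mean profile of the 9 genes most closely and was lower. It had 110, 39.8, 60.8 and 89.7 CPM in titled CT-26 libraries, against 263, 214, 274 and 276 CPM in titled control libraries (ENSMUSG00000003882.6, chr15:9505874-9530262, minus strand). The titled control libraries were close together and all lay above the titled CT-26 libraries. The means of 75.0 ± 30.9 and 257 ± 29.1 CPM (SD, n = 4 each) differed 3.44-fold, with a log2 fold change of -1.78 (SE 0.25, interval -2.29 to -1.27, edgeR adjusted p = 1.31e-06).

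Ccr7, the T zone homing receptor, did not pass the test. It had 38.9, 11.8, 16.1 and 20.4 CPM in titled CT-26 libraries and 36.3, 33.3, 30.1 and 36.1 CPM in titled control libraries (ENSMUSG00000037944.9, chr11:99035022-99045903, minus strand). Titled CT-26 library 1 was above all titled control libraries, and the other three were below all of them. The coefficient of variation was 54.7% in the titled CT-26 set and 8.58% in the titled control set. The log2 fold change was -0.65 (SE 0.31, interval -1.28 to -0.02, edgeR adjusted p = 0.0891). Markers of dendritic cells, which also carry Ccr7, summed to 31.7 to 52.2 CPM in titled CT-26 libraries and 114 to 175 CPM in titled control libraries, with 3 of 3 tested lower and Il4i1 at 0 in all 8 libraries.

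Of the paired T cell identity factors, Tcf7 (ENSMUSG00000000782.17, chr11:52143198-52174158, minus strand) had 50.4, 22.1, 42.9 and 56.8 CPM in titled CT-26 libraries, against 103.6, 60.9, 63.4 and 106 CPM in titled control libraries. The sets did not overlap, but the highest titled CT-26 library came close to the lowest titled control library. The means were 43.0 ± 15.1 and 83.4 ± 24.6 CPM (SD, n = 4 each), 1.96-fold lower in the titled CT-26 set. The log2 fold change was -0.97 (SE 0.27, interval -1.52 to -0.42, edgeR adjusted p = 0.00430), against -0.56 and an adjusted p of 0.118 with library totals.

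Lef1 (ENSMUSG00000027985.15, chr3:130904120-131018005, plus strand) had 72.5, 13.997, 29.5 and 30.7 CPM in titled CT-26 libraries, against 96.1, 76.1, 67.7 and 135 CPM in titled control libraries. Titled CT-26 library 1 lay above titled control library 3, which was the one overlap among the 6 genes that passed. Lef1 also varied most within the titled CT-26 set, with a coefficient of variation of 68.4% there and 32.1% in the titled control set. The log2 fold change was -1.37 (SE 0.39, interval -2.20 to -0.54, edgeR adjusted p = 0.0105), a 2.58-fold lower level. Of its exon bases 13.8% overlap the opposite-strand gene Gm43352, and the counts were made without strand, but Gm43352 had 4 counts over all libraries. Genes on other models overlap 5.40% of the exon bases of Bach2, 3.16% of those of Foxp1 and 1.49% of those of Satb1.

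Without titled CT-26 library 1, all 9 genes were lower, beside 1462 of all 6845 genes then tested (21.4%). Ccr7 then had a log2 fold change of -1.08 (edgeR adjusted p = 0.00489), Foxp1 of -0.69 (0.0119) and Satb1 of -0.58 (0.0450). The summed level of the 9 genes was 636 CPM in that library and 293 to 459 CPM in the other titled CT-26 libraries, against 909 to 1069 CPM in titled control libraries. Sequencing lane was read from the lane code in the deposited names. It divides the same libraries, so it gives no independent check. Lane 1 held 2 titled CT-26 and 1 titled control library, and lane 2 held 1 and 2. Lane 3 held only titled CT-26 library 3, and lane 4 only titled control library 2. In lane 1, which lacks titled CT-26 library 1, differences from the titled control library on a log2(CPM + 1) scale ran from -0.31 for Satb1 to -2.42 for S1pr1. The share of all genes lower in this lane was not taken. In lane 2, whose 1 titled CT-26 library is number 1, the 6 called genes differed by -0.65 for Lef1 to -1.34 for Bach2, and Ccr7, Foxp1 and Satb1 by 0.10, 0.11 and 0.15. With lane as a factor in edgeR, the same number of the 9 genes, 6, were lower, beside 15.7% of all genes tested. Because lanes 3 and 4 held 1 library each, that comparison rests on lanes 1 and 2.

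Levels between genes were compared per kilobase of exon. In the titled CT-26 set the order was Klf2 (19.0 ± 4.02 CPM per kb), Il7r (16.1 ± 6.62), Tcf7 (14.3 ± 4.99), Ccr7 (11.0 ± 6.03), S1pr1 (9.34 ± 3.95), Foxp1 (7.49 ± 2.19), Lef1 (4.17 ± 2.85), Satb1 (4.06 ± 1.295) and Bach2 (2.11 ± 0.703; SD, n = 4). In that order the ranges of all neighbours overlapped except those of Satb1 and Bach2. The titled control set ran Il7r (55.0 ± 6.25 CPM per kb), Klf2 (47.2 ± 11.6), S1pr1 (33.1 ± 10.5), Tcf7 (27.6 ± 8.16), Ccr7 (17.2 ± 1.47), Lef1 (10.7 ± 3.43), Foxp1 (10.6 ± 1.17), Bach2 (8.04 ± 0.826) and Satb1 (5.13 ± 1.17; SD, n = 4). There the neighbours whose ranges did not overlap were Tcf7 and Ccr7, Foxp1 and Bach2, and Bach2 and Satb1. Exon lengths are unions over all listed transcripts, 19027 bases for Satb1 and 1847 for Klf2, so genes with long or many ends are understated.

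The 9 genes were next set against transcripts of the T cell receptor complex (Cd3d, Cd3e, Cd3g, Cd247, Trac, Trbc1 and Trbc2), whose summed level was 565, 247, 305 and 276 CPM in titled CT-26 libraries, against 1914, 1634, 1355 and 1165 CPM in titled control libraries. On this scale, 5 of the 9 genes were higher in the titled CT-26 set (Satb1, Foxp1, Ccr7, Tcf7 and Klf2) and 0 were lower. Of all 6408 genes 88.4% were higher and 0.811% lower on it, with a median log2 fold change of 2.18, against a median of 0.86 for the 9 genes. The scale rests on 243 to 639 receptor complex counts in titled CT-26 libraries and 1261 to 2254 in titled control libraries. Trbc2 gave 46.9% to 62.4% of these counts in titled CT-26 libraries and 60.7% to 72.7% in titled control libraries.

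Satb1 had 202, 272, 214 and 226 counts per 1000 receptor complex counts in titled CT-26 libraries, against 43.0, 60.3, 59.5 and 110.5 in titled control libraries. Foxp1 had 254, 293, 299 and 383 per 1000 in titled CT-26 libraries, against 68.1, 96.3, 120 and 115 in titled control libraries. Ccr7 had 68.9, 47.8, 52.8 and 74.1 per 1000 in titled CT-26 libraries, against 19.0, 20.4, 22.2 and 31.0 in titled control libraries. These 3 genes did not pass the test by CPM, and on this scale their sets did not overlap, as was so, with titled CT-26 higher, for 77.6% of all genes tested. Their log2 fold changes were 1.74 for Satb1 (SE 0.40, edgeR adjusted p = 2.74e-05), 1.62 for Foxp1 (SE 0.40, 6.94e-05) and 1.39 for Ccr7 (SE 0.45, 0.00239).

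Tcf7 had 131 ± 55.2 counts per 1000 in the titled CT-26 set and 57.3 ± 23.4 in the titled control set, and Klf2 had 107 ± 25.3 and 58.6 ± 15.95 (SD, n = 4 each). For both genes the titled CT-26 and titled control libraries overlapped. Their log2 fold changes were 1.18 (SE 0.41, edgeR adjusted p = 0.00528) and 0.86 (SE 0.41, 0.0436), and these calls were lost in 2 and 9 of 14 alternatives of this scale. Tcf7 lost its call without titled CT-26 library 4 (0.89, edgeR adjusted p = 0.0621) and with lane as a factor (0.96, 0.126). Klf2 lost its call without any 1 of titled CT-26 libraries 2 to 4 or titled control libraries 1 to 3 (adjusted p between 0.0614 and 0.132). For the other 4 genes the test on this scale was not passed. Lef1 had a log2 fold change of 0.58 (interval -0.22 to 1.39), Il7r of 0.31 (-0.45 to 1.07), S1pr1 of 0.30 (-0.52 to 1.12) and Bach2 of 0.20 (-0.65 to 1.04). The intervals leave room for a change of either sign in these 4 genes. Without titled control library 4, Lef1 passed the test (1.01, edgeR adjusted p = 0.0296).

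**Figure D2:**
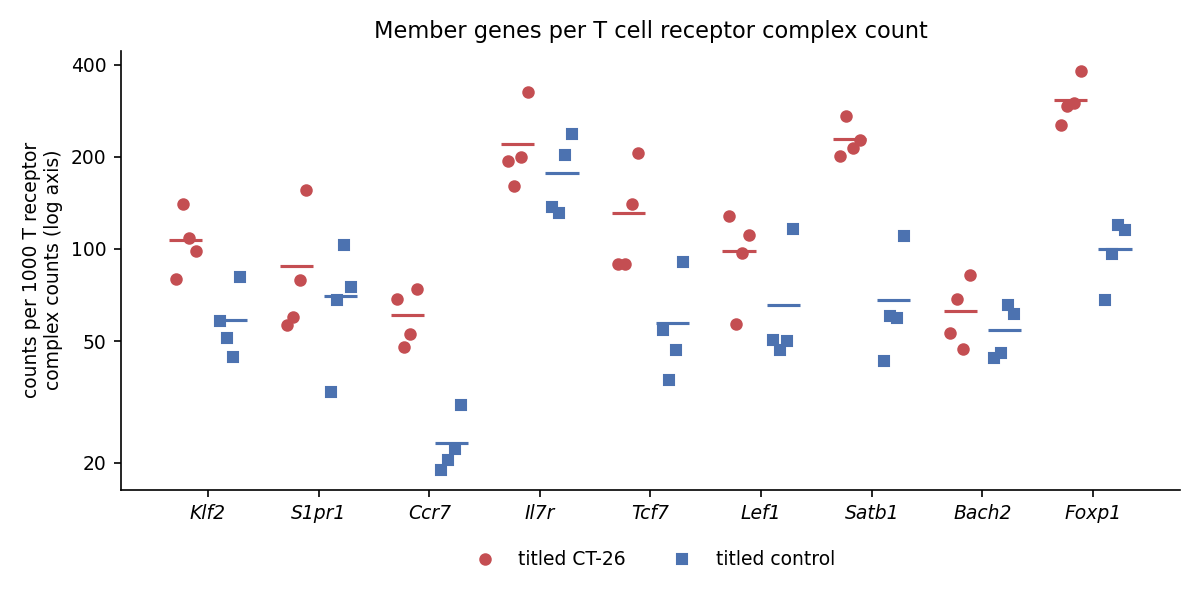
Counts of each of the 9 genes per 1000 counts of the T cell receptor complex in each library. Titled CT-26 libraries stand left of titled control libraries, with a line at each mean (n = 4 each). Ccr7, Satb1 and Foxp1 are higher in every titled CT-26 library than in any titled control library, as are 77.6% of all genes tested on this scale.

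**Figure D3:**
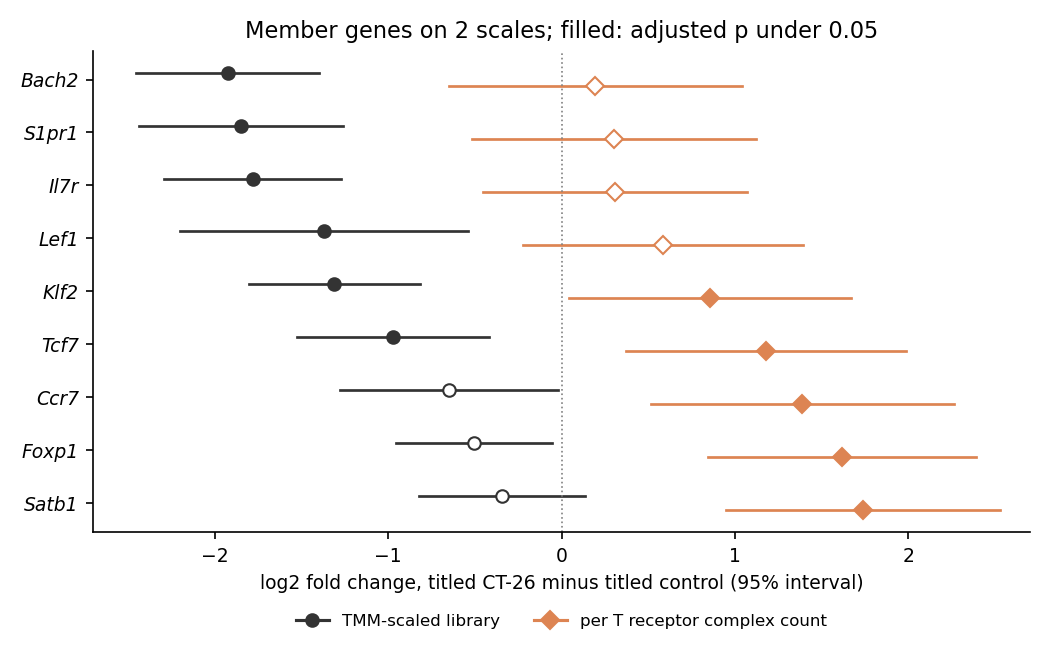
Log2 fold change, titled CT-26 minus titled control, of each of the 9 genes with its 95% interval, by TMM-scaled library (black) and per T cell receptor complex count (orange), filled where the adjusted p is under 0.05. By library 6 genes are filled and below 0, where 21.6% of all genes tested were lower. Per receptor complex count 5 are filled and above 0, where 88.4% of all genes tested were higher.

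Other genes of the same pathways were read from lists. In the quiescence list, 18 of 22 genes were tested, with 6 lower, 7 higher and a median log2 fold change of 0.11. The 4 higher genes of smallest p were Cdkn1b, Klf3, Klf13 and Tsc22d3. Cdkn1b, which encodes the cell cycle inhibitor p27, averaged 257 ± 36.7 CPM in the titled CT-26 set and 93.2 ± 21.8 CPM in the titled control set (log2 fold change 1.46, edgeR adjusted p = 2.64e-06). Klf3, a repressor of the Klf family, averaged 264 ± 38.2 CPM in the titled CT-26 set and 101 ± 13.4 CPM in the titled control set (1.38, 3.06e-06). Klf13 and Tsc22d3, which encodes the glucocorticoid-induced protein GILZ, had log2 fold changes of 1.21 (5.77e-05) and 1.5002 (8.59e-05). The direction in this list was thus mixed: these 4 genes were higher, while 6 other genes of the list were lower, as Klf2 was. Foxo1, an upstream activator of Klf2 and Il7r, had 34.5, 22.1, 28.6 and 35.2 CPM in titled CT-26 libraries and 36.3, 38.4, 43.0 and 46.9 CPM in titled control libraries. Its sets did not overlap, but it did not pass the test (log2 fold change -0.47, edgeR adjusted p = 0.142). Red cell precursor markers were higher beside this list, in 10 of 10, and their part in it was not tested.

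Around S1pr1, 8 of 13 genes of sphingosine-1-phosphate signalling and egress were tested, with 3 lower and 1 higher. Mfsd2b, the exporter of this lipid from red cells, averaged 40.7 ± 14.2 CPM in the titled CT-26 set and 8.48 ± 0.779 CPM in the titled control set (log2 fold change 2.25, edgeR adjusted p = 1.76e-06). Plpp3, an enzyme that degrades it, averaged 7.62 ± 3.17 CPM in the titled CT-26 set and 23.2 ± 7.43 CPM in the titled control set (-1.56, 0.00122), a call lost with lane as a factor (-1.13, 0.0574). Cd69, which removes S1pr1 from the cell surface, averaged 8.62 ± 4.97 CPM in the titled CT-26 set and 18.1 ± 6.75 CPM in the titled control set (-1.06, 0.0388), a call lost in 9 of 17 alternatives. S1pr4 was at -0.76 (0.0470), lost in 11 of 17. Leaving out 1 library ended the Cd69 call for titled CT-26 libraries 2 and 3 and titled control libraries 1 to 3 (adjusted p between 0.0593 and 0.153). It ended the S1pr4 call for titled CT-26 libraries 1, 2 and 4 and titled control libraries 1 and 4 (adjusted p between 0.0768 and 0.229; 0.0826 without titled CT-26 library 1). Cd69 and S1pr1 were thus both lower in the test over all libraries, but the Cd69 call was not stable. S1pr1 protein at the cell surface was not measured.

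Around Ccr7, 9 of 11 tested genes of the 17 in the homing list were lower and 0 higher. Ccr9, a gut homing receptor, averaged 2.88 ± 2.43 CPM in the titled CT-26 set and 41.6 ± 6.87 CPM in the titled control set (log2 fold change -3.71, edgeR adjusted p = 2.54e-08). Coro1a, an actin regulator needed for T cell egress, averaged 74.6 ± 9.37 CPM in the titled CT-26 set and 215 ± 8.59 CPM in the titled control set (-1.53, 5.17e-07). Cxcr5, the B cell follicle receptor, was at -2.17 (3.71e-05). The Ccr7 ligand gene Ccl21a had too few counts to test, with 2, 9, 5 and 3 counts in titled CT-26 libraries and 5, 8, 10 and 52 in titled control libraries, and its near-identical copies make even these uncertain.

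Around Il7r, 8 of 13 genes of interleukin 7 signalling were tested, with 3 lower and 1 higher. Il2rg, the common gamma chain that pairs with Il7r, averaged 122 ± 37.5 CPM in the titled CT-26 set and 709 ± 81.7 CPM in the titled control set (log2 fold change -2.54, edgeR adjusted p = 1.02e-09). Mcl1, a survival factor, was at -0.66 (0.00785) and Jak1, the kinase bound by Il7r, at -0.54 (0.0428), calls lost in 2 and 10 of 17 alternatives. Mcl1 was at -0.28 (0.399) with library totals and at -0.64 (0.0585) with lane as a factor. Jak1 lost its call without any 1 of titled CT-26 libraries 2 to 4 or titled control libraries 3 and 4 (adjusted p between 0.0561 and 0.175). Socs3, a feedback inhibitor of cytokine receptors, averaged 14.3 ± 3.91 CPM in the titled CT-26 set and 3.77 ± 1.09 CPM in the titled control set (1.91, 6.44e-04). The cytokine gene Il7 had 0 to 3 counts in a library and was not tested.

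Around Tcf7, Lef1 and Satb1, 4 of 8 tested T cell identity genes of the 13 listed were lower and 0 higher. Id3, an inhibitor of E proteins, averaged 8.99 ± 3.07 CPM in the titled CT-26 set and 73.4 ± 2.18 CPM in the titled control set (log2 fold change -3.02, edgeR adjusted p = 1.57e-09). Themis, a T cell receptor signalling protein, was at -2.67 (2.34e-07), Ikzf3 at -2.10 (2.63e-05) and Bcl11b, the T lineage commitment factor, at -1.74 (4.04e-04). Of 19 genes of activated and effector T cells, 6 had enough counts to test, of which 4 were lower and 0 higher. Icos, a costimulatory receptor, was at -2.48 (1.73e-07) and Ccl5, an effector chemokine, at -1.57 (3.27e-05). Zeb2 was at -0.74 (0.0225) and Cd44 at -0.76 (0.0269), calls lost in 6 and 5 of 17 alternatives. Without titled CT-26 library 1, Zeb2 was at -0.53 (edgeR adjusted p = 0.0941) and Cd44 at -0.58 (0.100), and without library 2 they were at -0.62 (0.0819) and -0.65 (0.0883). The Zeb2 call was also lost without titled control library 1 (0.0693) and the Cd44 call without titled control library 3 (0.0856).

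**Figure D4:**
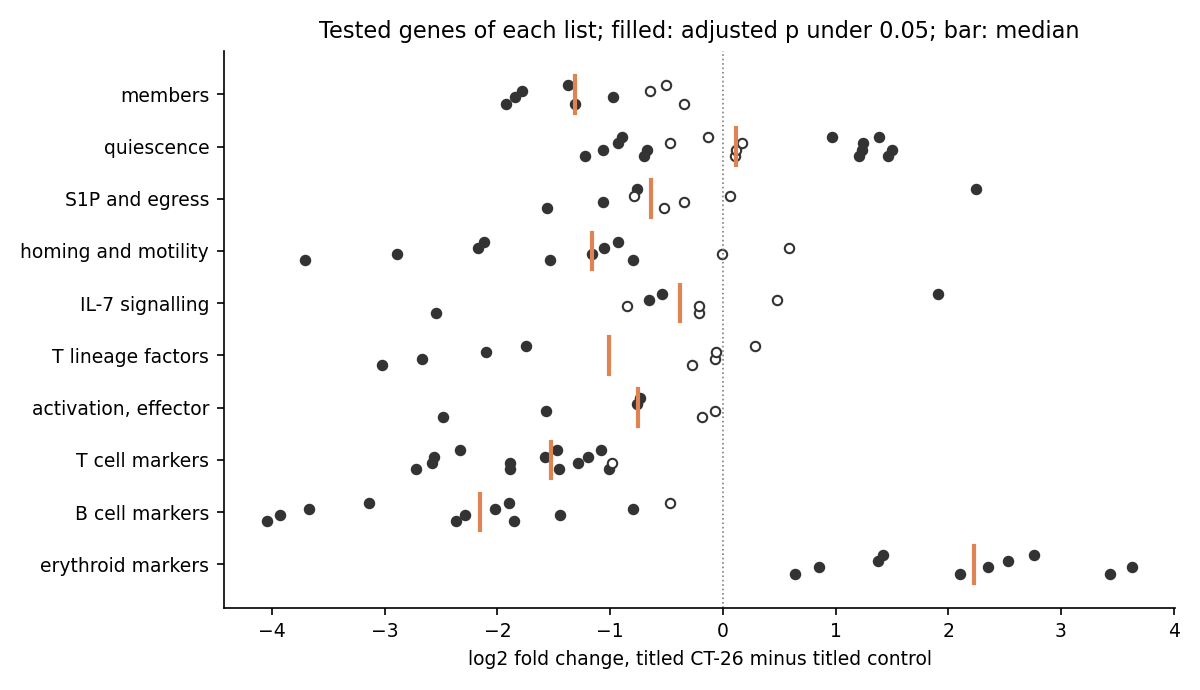
Log2 fold change, titled CT-26 minus titled control, of each tested gene in each list, filled where the adjusted p is under 0.05, with a bar for each list's median and a dotted line at 0. The 9 genes (top row, members) have a median of -1.31, the T cell markers one of -1.52 and the B cell markers one of -2.15. All red cell precursor (erythroid) markers lie above 0.

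The profile of the 9 genes over the 8 libraries was summarised as the mean of their z-scored log2 levels. Each of the 9 genes is part of this mean, which raises its own r, unlike genes outside the 9. The genes followed it to different degrees, with Pearson r of 0.98 for Il7r, 0.97 for Lef1, 0.94 for Ccr7, 0.93 for Bach2, 0.91 for Foxp1, 0.88 for S1pr1 and Tcf7, 0.87 for Klf2 and 0.75 for Satb1. The mean was 0.13 in titled CT-26 library 1 and -1.47, -0.96 and -0.63 in libraries 2 to 4 of that set, against 0.58 to 0.96 in titled control libraries. Outside the 9 genes, those closest to this mean were Cstf2t (r = 0.99), Ankrd10 (0.99), Ets1 (0.99), Fkbp1a (0.98) and Maml2 (0.98). Ets1, a transcription factor of resting lymphocytes, averaged 60.5 ± 20.95 CPM in the titled CT-26 set and 140.3 ± 20.9 CPM in the titled control set. These r describe 8 libraries in 2 sets that differ, so they reflect the difference between the sets as well as the spread within them.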

How the data were processed

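Per the file headers, the deposited tables hold raw counts per gene from featureCounts 2.0.1, made without strand on a GRCm39 annotation. The submitters' processing notes name Trimmomatic 0.39, STAR 2.7.10a, GRCm39 and GRCm38. Exon lengths are the authors' own, another column of the deposited tables. Low genes were removed by filterByExpr, TMM gave the scaling, and the test was that of edgeR 4.0.16 (robust quasi-likelihood, two-sided, Benjamini-Hochberg at 0.05 over 6408 genes; R 4.3.3). CPM use TMM-scaled totals. The receptor complex scale takes the summed complex counts as library size, without TMM. The procedure was checked on simulated counts. These had far fewer changed genes than were called here, with equal chances of either direction, so TMM scaling was not put to the test. Members and lists were chosen with earlier results of these data known. Named are all 9 members, up to 4 called genes of smallest p per pathway list, up to 2 per marker list, and Foxo1, Cd69, Ccl21a and the 5 genes most alike; 1 gene that the rule names is not reported here. Correlations between libraries of equal number, set means removed, were -0.09 to 0.08, so numbers were not treated as pairs. No libraries were duplicates (lowest chi-square per degree of freedom 3.70). Receptor repertoire tables were not used here.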

Additional observations from a re-analysis of the deposited data

Results flagged for a closer look

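Satb1 in titled CT-26 library 1 was at 114 CPM, far from the other titled CT-26 libraries, which had 67.0, 65.3 and 62.5 CPM. The gap took 0.911 of the whole range of the set, above the critical value of Dixon's outlier test for 4 libraries. It was the 1 value marked among 18 sets (9 genes, each in both titles), and chance marks about 1 in 20. The same library also had the highest level of Klf2, Ccr7, Il7r, Lef1, Bach2 and Foxp1 in its set.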

How the results depend on the processing

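With library totals in place of TMM scaling, 725 genes were lower instead of 1381, log2 fold changes shifted by a median of 0.37, and the median over the 9 genes was -0.91. In 15 of 17 alternatives 6 of the 9 genes were lower. Without TMM 5 were, and without titled CT-26 library 1 all 9 were. Over the 17 alternatives 9.17% to 22.5% of all genes tested were lower, with 11.3% without TMM and 21.4% without that library. DESeq2 called 1315 genes higher, 1281 lower and 6 of the 9 lower. With lane as a factor 999 genes were higher and 1007 lower. With the replicate block, 1340 genes were higher and 1328 lower, and 6 of the 9 were lower. Per receptor complex count 5 were then higher, beside 89.9% of all genes tested. The shared numbers are not known to mark pairs. Per receptor complex count, leaving out 1 library gave 3 to 6 genes called higher instead of 5. There were 3 without titled CT-26 library 4 and 6 without titled control library 4. In these runs 84.0% to 91.3% of all genes tested were higher. With lane as a factor, chosen after seeing the data, 3 were called higher, beside 70.7% of all genes tested. The cause was not tested. No value of the 9 genes that passed the test changed sign in these alternatives. Depth limits the ligand genes: Ccl21a and Il7 could not be tested.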

Other observations

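Markers of other spleen cells differed between the sets beside the 9 genes. Among markers of neutrophil precursors 8 of 8 tested were higher, with sums of 1537 to 4129 CPM in titled CT-26 libraries and 187 to 363 CPM in titled control libraries. Prtn3, a granule protease, averaged 137 ± 53.3 CPM in the titled CT-26 set and 5.27 ± 2.28 CPM in the titled control set (log2 fold change 4.71, edgeR adjusted p = 2.79e-10). All 9 markers of dividing cells were higher, with Birc5 at 726 ± 142 CPM in the titled CT-26 set and 75.5 ± 15.4 CPM in the titled control set (3.26, 1.95e-11). Natural killer cell markers were lower in 4 of 4 tested, with Gzma, a granzyme, at 7.64 ± 3.56 CPM in the titled CT-26 set and 136 ± 46.5 CPM in the titled control set (-4.14, 2.98e-10).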
